A study of Rattus norvegicus with 5 samples.

Results

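The barcodes described here are those of the day 3 libraries in which fewer than 500 genes had a nonzero value. A barcode is the tag that marks 1 droplet, and a UMI is the tag that marks 1 captured RNA molecule. There were 731 such barcodes among 8859 with GFP, and 292 among 6781 with TBX18, or 1023 of the 15640 barcodes of both libraries and of the 38019 barcodes of the series. The number of genes chose these barcodes, so it is given as a description, and values that follow from it carry no test. The other 14617 barcodes of the same libraries, with 500 genes or more, are the comparison.

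Both libraries were made from primary cultures of ventricular cells, myocytes and non-myocytes together, of wild-type Sprague dawley rats at age P2. The cultures had been kept for 3 days with Adeno-GFP, the control virus, or with Adeno-TBX18, which delivers TBX18, a T-box transcription factor. The series addresses the reprogramming of ventricular myocytes towards pacemaker cells by TBX18, as its title states, and also holds 3 libraries at day 14. Each group is 1 library, and how many animals or cultures went into it is not given in the sources used here. All intervals below are exact 95% intervals for counting error, and differences between the libraries have no replicate check.

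Mitochondria carry a small genome of their own, which is transcribed inside the organelle. It encodes core subunits of the respiratory chain and of the ATP synthase, together with the ribosomal and transfer RNAs of the organelle. Heart myocytes are packed with mitochondria, and transcripts of this genome are abundant in them. In droplet libraries, barcodes dominated by these transcripts are commonly set aside during quality control.

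Nearly all UMIs of the few-gene barcodes lay in 15 gene columns, chosen over both libraries together. These columns, called leading here, each held at least 0.1% of the UMIs of the few-gene barcodes and a larger share there than in the other barcodes, in both libraries. With GFP they held 97.4% (97.37 to 97.40) of the UMIs of the few-gene barcodes and 14.1% of those of the other barcodes. With TBX18 the shares were 98.2% (98.22 to 98.25) and 12.5%. The columns were chosen by these values, so the shares describe the barcodes and test nothing. The choice took both libraries at once, so the list is shared by construction. Any other column with a larger share in the few-gene barcodes held at most 109 UMIs with GFP and 164 with TBX18, too few for 0.1%.

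Of the 15 leading columns, 4 had been taken as marks of mitochondrially encoded genes, namely ENSRNOG00000030371, ENSRNOG00000031979, ENSRNOG00000031766 and ENSRNOG00000034234. These 4 held 59.2% of the UMIs of the few-gene barcodes with GFP and 57.3% with TBX18, against 8.92% and 8.10% in the other barcodes. The day 3 tables identify genes by Ensembl ID alone, and 0 of their 15243 columns had a match in the gene table used. That reading of the 4 IDs was therefore not checked against an annotation, and the other 11 leading columns are given by ID alone, with no name or function.

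The high share held barcode by barcode. With GFP, the leading columns took from 66.4% to 99.2% of the UMIs of a few-gene barcode, with a median of 97.8%, and 708 of the 731 barcodes were above 90%. With TBX18 the range was 79.1% to 99.6%, the median was 98.5%, and 287 of the 292 were above 90%. Not a single few-gene barcode of either library was under 50%, which the limit and the depth of the barcodes favour. Among the other barcodes, the median share was 15.6% with GFP and 10.6% with TBX18, and 6 of 8128 and 12 of 6489 were above 90%.

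**Figure D1:**
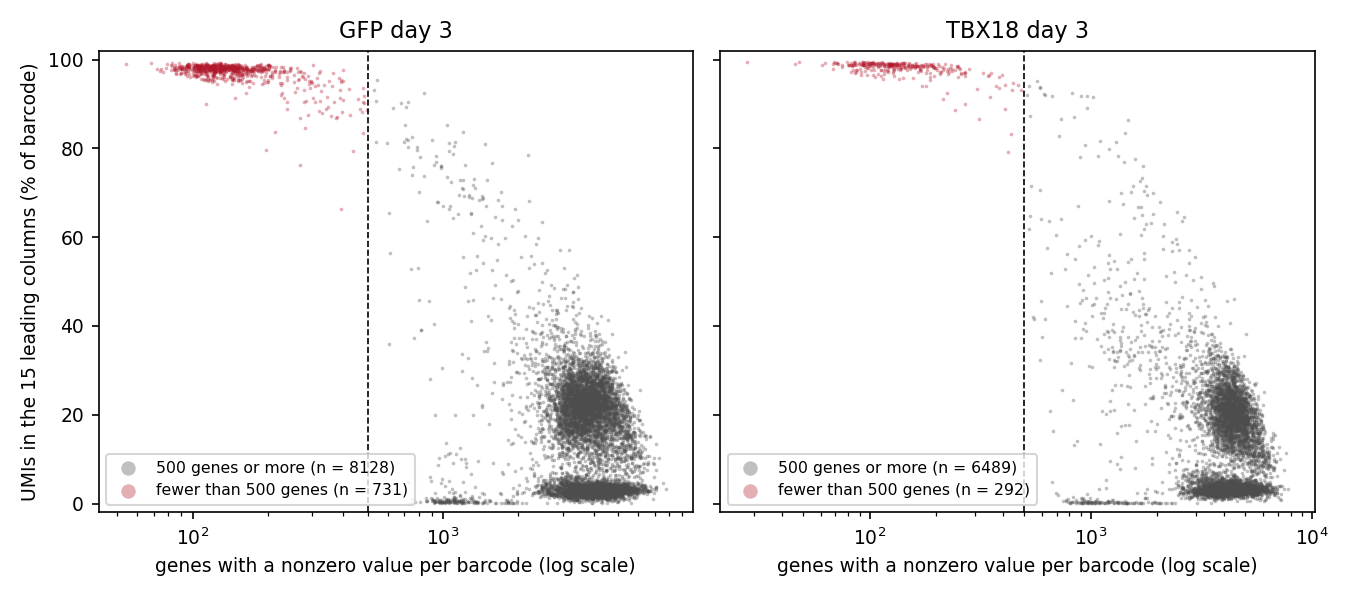
Share of the UMIs of each barcode held by the 15 leading columns (y, %) against its number of genes with a nonzero value (x, log scale), with 1 point per barcode and a dashed line at 500 genes. Red points, the few-gene barcodes, lie between 66.4% and 99.2% with GFP and between 79.1% and 99.6% with TBX18, while most grey points form an upper and a lower band beyond 2000 genes.

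The change of this share with the number of genes was gradual on one side of the limit and mixed on the other. With GFP its median was 98.1% in the 72 barcodes with fewer than 100 genes, 97.97% in the 391 with 100 to fewer than 150 genes, and 90.3% in the 13 with 400 or more. With TBX18 the medians were 98.9% in 65, 98.8% in 116 and 93.2% in 8 barcodes of the same ranges. In the 50 genes just inside the limit, the median share was 90.3% over 9 barcodes with GFP and 93.8% over 2 barcodes with TBX18. In the 50 genes just outside it, the median was 91.9% over 4 barcodes with GFP and 71.6% over 7 barcodes with TBX18. The limit thus fell where barcodes were scarce, and some barcodes like those inside it lay just beyond.

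A second kind of barcode with a low number of genes appeared only above the limit. Of the 64 barcodes with 800 to fewer than 1000 genes in the GFP library, 37 had less than 5% of their UMIs in the leading columns, and 14 had more than 50%. In the TBX18 library the same range also held 64 barcodes, 35 of them under 5% and 13 over 50%. Below 500 genes, 0 barcodes of either library were under 5%. The limit and the depth of the barcodes favour this absence, and its cause was not tested. The other barcodes held at least 1782 UMIs with GFP and 1433 with TBX18. Thinned at random to 1000 UMIs, they had a median of 538 and 535 genes, above the limit. The 5th percentiles were 452 and 421.4 genes, below it. These values cover all other barcodes, and those with a low share of leading columns were not thinned apart.

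Few genes did not mean few molecules. The few-gene barcodes held a median of 6613 UMIs with GFP and 10122 UMIs with TBX18, against 23282 and 29068 in the other barcodes. The smallest of them held 2363 UMIs with GFP and 2464 with TBX18. The smallest of the other barcodes held 1782 and 1433, so barcodes with few molecules were absent from both libraries. At the median they held 134 genes with GFP and 129.5 with TBX18, against 3792 and 4181. Most lay far below the limit, since 83.7% of them with GFP and 80.8% with TBX18 had fewer than 200 genes.

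The number of genes was also counted at equal depth. With each barcode thinned to 2000 UMIs, the few-gene barcodes held a median of 56 genes with GFP and 43 with TBX18. The other barcodes held 880 and 873.5 genes at the same depth. All few-gene barcodes were deep enough for this, and 1 other barcode of each library was left out as shallower. The number of genes chose the barcodes, so this gap is a description, and its cause was not tested. With only the UMIs outside the leading columns thinned, to 500 each, the medians were 271 against 350 genes with GFP and 319 against 342 with TBX18. The gap was far smaller there, but only 39 and 16 few-gene barcodes were deep enough, and 692 and 276 were left out. These 39 and 16 had at least 500 such UMIs yet fewer than 500 genes, so the limit itself favours low numbers of genes in them.

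In absolute terms the few-gene barcodes held more UMIs of the leading columns than the other barcodes did. With GFP the median was 6402 UMIs of the leading columns per few-gene barcode, with quartiles of 4515 and 8661.5, against 3231 in the other barcodes, with quartiles of 780 and 5398. With TBX18 it was 9910 UMIs, with quartiles of 6698 and 12985.7, against 2673, with quartiles of 894 and 6242. The medians differed 1.98-fold with GFP and 3.71-fold with TBX18, and the ranges of the barcodes overlapped in both libraries. With GFP, 84.6% of the other barcodes held fewer UMIs of the leading columns than the few-gene median, and with TBX18 it was 97.0%.

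In all other columns the difference ran the opposite way and was far larger. A few-gene barcode held a median of 138 UMIs outside the leading columns with GFP and 131.5 with TBX18. The other barcodes held 19766.5 and 25238, which is 143-fold and 192-fold more. The few-gene medians of 138 and 131.5 lay near the median numbers of genes of the same barcodes, 134 and 129.5. The number of genes chose these barcodes, which favours few UMIs outside the leading columns. Most of them lay far below the limit of 500, with upper quartiles of 170.5 genes with GFP and 182 with TBX18. How much of the low medians the limit accounts for was not tested. The fold differences and the closeness of the 2 libraries outside the leading columns are therefore a description. Inside the leading columns the median was higher with TBX18.

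**Figure D2:**
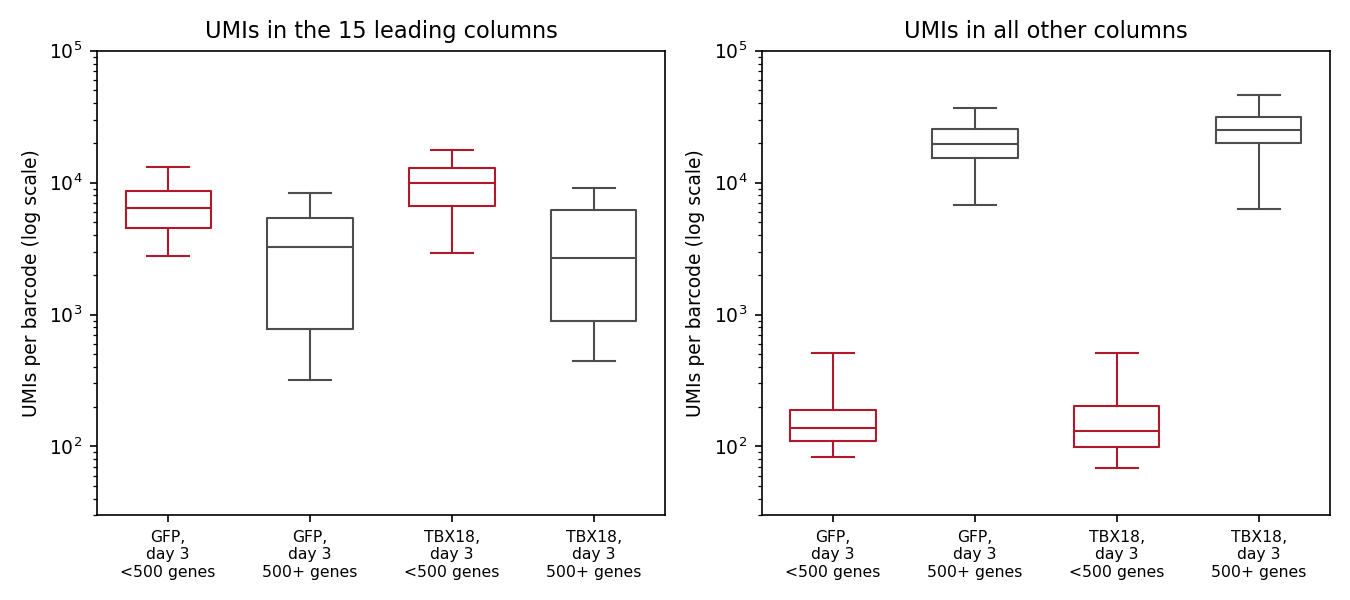
UMIs per barcode (y, log scale) in the 15 leading columns on the left and in all other columns on the right, for barcodes under and over 500 genes of each day 3 library. Boxes show the median and the quartiles over barcodes and whiskers the 5th and 95th percentiles: few-gene barcodes (red) have the higher medians on the left, 6402 and 9910, and the lower ones on the right, 138 and 131.5.

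As a part of each library, the few-gene barcodes were small in molecules and larger in the leading columns. They made up 8.25% (7.69 to 8.84) of the barcodes with GFP and 4.31% (3.84 to 4.82) with TBX18. They held 2.58% and 1.51% of all UMIs of the libraries, but 15.4% and 10.8% of the UMIs of the leading columns. The share of barcodes was higher with GFP than with TBX18 by more than counting error. Whether cultures of 1 virus differ by as much among themselves was not tested.

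The 15 leading columns differed widely in how much they held. Values here are shares of all UMIs of the few-gene barcodes, that is of molecules counted at the 3' end, and are not scaled by transcript length. ENSRNOG00000030371 held most, at 24.98% (24.94 to 25.02) with GFP and 25.04% (24.99 to 25.09) with TBX18, against 3.85% and 3.60% in the other barcodes. It was the most abundant leading column in 729 of the 731 few-gene barcodes with GFP and in 282 of the 292 with TBX18. The share of this column was thus nearly equal in both libraries.

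The next columns were also close between the libraries, with some exceptions. ENSRNOG00000031979 held 14.8% with GFP and 15.2% with TBX18, and ENSRNOG00000030700 held 13.6% and 12.02%. ENSRNOG00000031766 held 11.4% and 9.66%, and ENSRNOG00000034234 held 7.99% and 7.40%. ENSRNOG00000030644 held 7.40% and 6.83%, ENSRNOG00000031033 held 4.56% and 4.16%, and ENSRNOG00000029707 held 3.17% and 2.84%. The largest gap between the libraries in this group was in ENSRNOG00000043866, at 6.85% with GFP and 11.3% with TBX18, followed in size by ENSRNOG00000031766. It was among the 6 most abundant columns with TBX18 but not with GFP, where ENSRNOG00000030644 took that place, and the other 5 were shared.

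A further 6 columns of the 15 held less. ENSRNOG00000030478 held 1.52% with GFP and 2.66% with TBX18. The remaining 5, ENSRNOG00000033615, ENSRNOG00000031053, ENSRNOG00000029971, ENSRNOG00000029042 and ENSRNOG00000033299, each held between 0.115% and 0.421%. After them the level dropped. Apart from ENSRNOG00000062158, which is described further on, the next column held 0.0435% with GFP and 0.0450% with TBX18.

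Every leading column held a larger share in the few-gene barcodes than in the other barcodes, as the choice of the columns requires, but by unequal factors. The median factor over the 15 columns was 6.33 with GFP and 7.11 with TBX18. ENSRNOG00000043866 had the largest factor, 18.4 with GFP and 24.4 with TBX18, and ENSRNOG00000030478 had the next, 8.74 and 13.5. ENSRNOG00000031053 had the smallest, 2.83 and 3.57. Over all columns, 0.212% of 8974 with GFP and 0.224% of 7575 with TBX18 were at least 2-fold higher in the few-gene barcodes, and 99.8% and 99.7% at least 2-fold lower. A column entered this count with at least 20 UMIs in the few-gene barcodes, seen or expected from its share in the other barcodes. All 15 leading columns are among the 19 and 17 columns called higher, so nothing is read from their number.

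**Figure D3:**
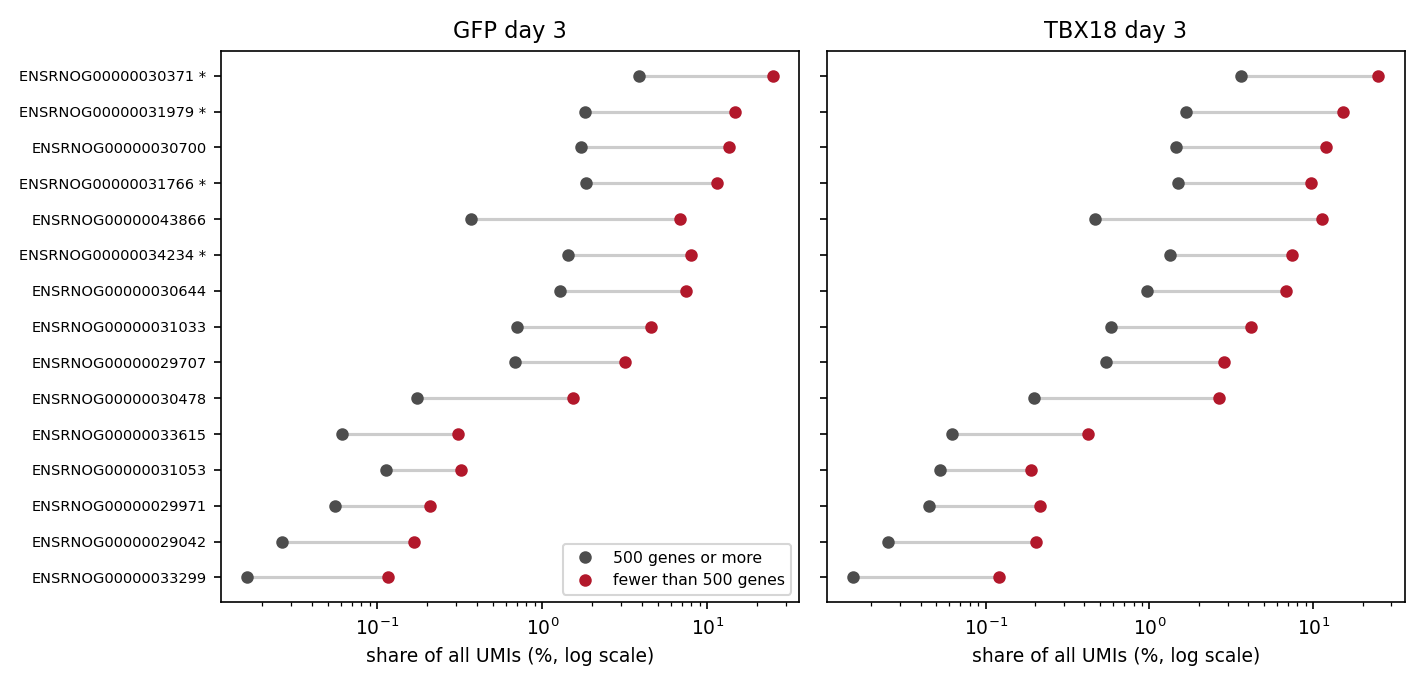
Share of all UMIs (x, %, log scale) held by each of the 15 leading columns (y, by Ensembl ID) in few-gene barcodes (red) and in the other barcodes (grey) of each day 3 library, as sums over barcodes, with the 4 columns taken as mitochondrially encoded marked by an asterisk. The distance between the points is widest for ENSRNOG00000043866, at 0.372% and 6.85% with GFP and 0.462% and 11.3% with TBX18.

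The make-up of the RNA within the leading columns was then compared, so that their total no longer mattered. ENSRNOG00000043866 made up 7.04% of the UMIs of the leading columns in few-gene barcodes with GFP and 2.63% in the other barcodes, a log2 ratio of 1.42 (1.41 to 1.43). With TBX18 it made up 11.5% and 3.69%, a log2 ratio of 1.64 (1.63 to 1.64). ENSRNOG00000030478 had log2 ratios of 0.34 (0.33 to 0.35) and 0.78 (0.77 to 0.79). In the opposite direction, ENSRNOG00000031053 had -1.28 (-1.31 to -1.26) and -1.14 (-1.18 to -1.10). ENSRNOG00000029971 had -0.86 and -0.72, and ENSRNOG00000029707 had -0.58 and -0.60. The most abundant column, ENSRNOG00000030371, was lower by less, at 25.6% against 27.2% with GFP and 25.5% against 28.8% with TBX18. Its log2 ratios were -0.09 and -0.18. These are shares of 1 total, so a rise in 1 column lowers the others. The leading columns thus did not scale up by 1 common factor.

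The shift of ENSRNOG00000043866 was present in most barcodes. Per few-gene barcode it made up a median of 7.05% of the leading UMIs with GFP, with 5th and 95th percentiles of 4.05% and 10.9%, against a median of 2.40% (1.05% and 4.48%) in the other barcodes. With TBX18 the median was 10.96%, from 6.67% to 17.0%, against 2.96%, from 1.35% to 7.69%. In all, 91.4% of the few-gene barcodes with GFP and 89.0% with TBX18 lay above the 95th percentile of the other barcodes of their library. A small number of barcodes were extreme: it was the top leading column in 2 few-gene barcodes with GFP and in 9 with TBX18, where it reached 86.4% in 1 barcode. Without these barcodes its share was 7.03% with GFP and 10.97% with TBX18.

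Its share also changed with the number of genes inside each library. With GFP it was 7.79% in barcodes with fewer than 100 genes and 4.42% in few-gene barcodes with 400 or more, and with TBX18 it was 11.8% and 8.08%. Beyond 2000 genes it went on down, from 3.32% at 2000 to fewer than 3000 genes to 1.76% at 6000 or more with GFP, and from 5.20% to 2.30% with TBX18. Between 500 and 1500 genes the values did not follow this order, with 7.55% at 800 to fewer than 1000 genes with GFP and 14.2% at 600 to fewer than 800 genes with TBX18. The range from 400 genes to the limit rests on 13 and 8 barcodes, and that from the limit to 600 genes on 6 and 15. Among other barcodes in which the leading columns exceeded 50% of UMIs, 118 with GFP and 106 with TBX18, it made up 4.596% and 6.26%, between the few-gene barcodes and the rest.

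**Figure D4:**
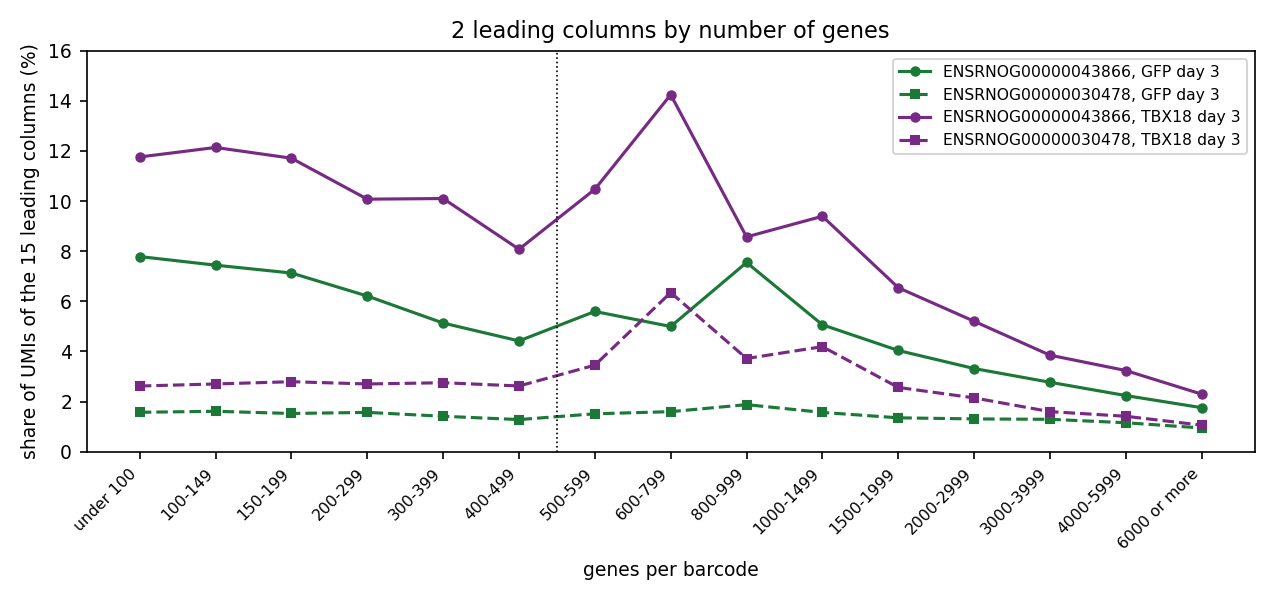
Share of the UMIs of the 15 leading columns (y, %) held by ENSRNOG00000043866 (circles, full lines) and ENSRNOG00000030478 (squares, broken lines) in barcodes grouped by number of genes (x), as sums over the barcodes of a range, for GFP (green) and TBX18 (purple) at day 3, with the 500 gene limit dotted. ENSRNOG00000043866 goes from 7.79% to 1.76% with GFP and from 11.8% to 2.30% with TBX18 between the lowest and the highest range, with an uneven course between 500 and 1500 genes.

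Side by side, the make-up of the leading columns in the few-gene barcodes was close between the 2 libraries for 12 of the 15 columns, which lay within 0.5 on the log2 scale. ENSRNOG00000030478 was higher with TBX18 by a log2 ratio of 0.79 (0.78 to 0.81) and ENSRNOG00000043866 by 0.71 (0.70 to 0.71). ENSRNOG00000031053 was lower with TBX18, at -0.77 (-0.82 to -0.73). The same 3 columns differed in the same direction in the other barcodes, at 0.36, 0.49 and -0.92. There only ENSRNOG00000031053 lay beyond 0.5, so by this band the few-gene barcodes were less alike between the libraries than the other barcodes. ENSRNOG00000031053 is 1 of 6 leading columns with GFP and of 5 with TBX18 that hold fractional values, so their molecules may be shared with other genes and their levels are uncertain.

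The UMIs outside the leading columns numbered 136391 over all few-gene barcodes with GFP and 52420 with TBX18, and 8821 and 6881 columns of the tables had at least 1 UMI there. As a share of all UMIs, the columns outside the leading ones were lower in the few-gene barcodes by a median factor of 33.0 over 8959 columns with GFP and of 43.3 over 7560 columns with TBX18. To look at their make-up, shares were taken of the UMIs outside the leading columns alone. Ratios of these shares, few-gene over other barcodes, had medians of -0.20 and -0.23 on the log2 scale, over 1192 columns with GFP and 464 with TBX18, with a pseudocount of 0.5 UMI. These include columns that entered only through their UMIs in the few-gene barcodes, 132 with GFP and 50 with TBX18. Over the 1060 and 414 columns with at least 20 UMIs expected from the other barcodes, a restriction chosen after seeing the data, the medians were -0.27 and -0.32. Their standard deviations were 0.55 and 0.52, where counting error alone would give about 0.22 in both libraries.

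Of the outside columns, 65 of 1192 (5.45%) with GFP and 27 of 464 (5.82%) with TBX18 were at least 2-fold higher in the few-gene barcodes, and 109 (9.14%) and 29 (6.25%) at least 2-fold lower. Of the higher ones, 58 and 25 had entered only through their UMIs in the few-gene barcodes, which favours high values. Over the columns with at least 20 expected UMIs, 7 of 1060 (0.66%) with GFP and 2 of 414 (0.483%) with TBX18 were 2-fold higher, and the lower ones numbered the same 109 (10.3%) and 29 (7%). The split also rests on the scaling. With ratios centred on their median, 86 were higher and 60 lower with GFP, and 36 and 16 with TBX18. The files hold no names for these columns, so no theme can be given to them.

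The highest ratios outside the leading columns belonged to columns that were almost empty elsewhere. ENSRNOG00000032274 had 109 UMIs in 95 few-gene barcodes with GFP and 57 UMIs in 49 with TBX18, at 799 and 1087 CPM of the UMIs outside the leading columns, against 3.73 and 2.66 CPM in the other barcodes. Its log2 ratio was 7.75 (7.44 to 8.04) with GFP and 8.69 (8.25 to 9.08) with TBX18. ENSRNOG00000032578 followed, at 7.43 (6.98 to 7.85) and 8.02 (7.58 to 8.40), from 51.9 and 54.99 estimated UMIs. From the other barcodes, 0.508 and 0.139 UMIs were expected for the first column and 0.303 and 0.214 for the second. Both columns therefore entered only through the few-gene barcodes, where they had to be high, and their ratios and intervals are a description. Both had a larger share of all UMIs there, as the leading columns did. In all, 4 columns outside the leading ones had this property in each library, with 205 and 307 UMIs between them.

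The lowest, by the inner end of the interval in both libraries, was ENSRNOG00000034254. It had 50 UMIs with GFP and 30 with TBX18, with log2 ratios of -1.69 (-2.13 to -1.30) and -1.42 (-2.01 to -0.93). ENSRNOG00000036362 was next, at -1.47 (-1.80 to -1.17) and -1.33 (-2.01 to -0.79). Both columns were picked by these intervals, so their low values in both libraries are a description. Over all outside columns with at least 20 expected UMIs, the medians were -0.27 with GFP and -0.32 with TBX18.

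ENSRNOG00000062158 was the one column that held over 0.1% of the few-gene UMIs in both libraries without being higher there. It held 0.272% of all UMIs with GFP and 0.145% with TBX18, against 1.18% and 1.04% in the other barcodes. Of the UMIs outside the leading columns it held 10.4% and 8.18%, against 1.37% and 1.19%. These molecules sat in few barcodes. With GFP the 73 barcodes richest in it, 10% of all few-gene ones, held 91.5% of them, and with TBX18 the richest 29 held 83.9%. The median few-gene barcode had 1 UMI of it in each library, and its median share of the outside UMIs was 0.840% with GFP and 0.897% with TBX18, below the medians of 1.27% and 1.03% in the other barcodes. The few-gene barcodes with at least 20 such UMIs, 73 with GFP and 40 with TBX18, had a median of 292 and 250.5 genes and a median of 92.4% and 96.8% of their UMIs in the leading columns. The high summed share was thus a property of a minority of the barcodes.

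To set the outside molecules beside those of the other barcodes, columns were ranked by how their share went with that of the leading columns over the other barcodes. The 50 columns with the strongest positive and the 50 with the strongest negative rank correlation in both libraries, out of 4118 ranked, were summed. These lists were chosen on the other barcodes of these libraries and are described without a test. The rank correlations of the rising list were at least 0.683 with GFP over 8128 barcodes and 0.675 with TBX18 over 6489, and those of the falling list were at most -0.709 in both. They rest on shares that have the same barcodes and depth in common.

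In the few-gene barcodes the rising columns held 5.05% (4.93 to 5.17) of the outside UMIs with GFP and 4.14% (3.97 to 4.32) with TBX18, and the falling columns 9.04% (8.89 to 9.19) and 9.25% (8.9998 to 9.498). The 2032 other barcodes with the highest share of leading columns with GFP, and 1623 with TBX18, had 7.96% and 6.79% rising and 5.76% and 6.82% falling. The same numbers of barcodes with the lowest share had 0.736% rising and 19.6% falling with GFP, and 0.656% and 20.7% with TBX18. All other barcodes together had 4.12% rising and 12.3% falling with GFP, and 3.29% and 13.95% with TBX18. The other barcodes with over 50% of their UMIs in the leading columns had 9.08% rising and 3.33% falling with GFP, and 7.39% and 5.23% with TBX18. The ratio of rising to falling was 0.559 with GFP and 0.448 with TBX18 in the few-gene barcodes, 0.336 and 0.236 in all other barcodes, and 2.73 and 1.41 in those over 50%. By this ratio the few-gene barcodes lay closer to all other barcodes together than to those over 50%, although their own share of leading columns was higher still. This did not hold for each list: with TBX18 the falling share of 9.25% was nearer to 5.23% than to 13.95%. Choosing the lists on the other barcodes favours a high ratio in those over 50%, so no likeness is read from these distances. Among single columns with at least 20 expected UMIs, 3 of 40 rising ones were 2-fold higher with GFP and 1 of 26 with TBX18, with medians of 0.32 and 0.13. Of the falling ones 5 of 50 and 9 of 49 were 2-fold lower, with medians of -0.41 and -0.62. Over all outside columns with as many expected UMIs, 0.66% and 0.483% were higher and 10.3% and 7% lower, with medians of -0.27 and -0.32.

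The transgene columns were nearly empty in the few-gene barcodes. With GFP, 4 of the 731 had an EGFP UMI, 1 each, at 29.3 CPM of the outside UMIs (7.99 to 75.1), against 66.5 (65.3 to 67.7) in the other barcodes. With TBX18, 3 of the 292 held 5 UMIs of ZsGFP and 2 held 2 UMIs of hTBX18, at 95.4 (31.0 to 223) and 38.2 (4.62 to 138) CPM, against 37.4 and 14.7. Scaled to the molecules outside the leading columns, the few-gene intervals include the level of the other barcodes for EGFP, ZsGFP and hTBX18. In the GFP library 0 of the 731 had a UMI of ZsGFP or hTBX18, which by the limit of 3 counts allows up to 22.0 CPM, and the TBX18 library had 0 of 292 with EGFP, which allows up to 57.2 CPM. The upper ends of the exact 95% intervals used above are wider for these counts of 0, at 27.0 and 70.4 CPM. Free RNA in a droplet can give single UMIs, and its part here was not tested.

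Barcodes shared between the libraries were also counted. The day 3 tables had 15 barcodes in common, of which 14 had 500 genes or more in both and 1 had few genes with GFP only. The few-gene barcodes had 0 in common.

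The day 14 tables held 0 few-gene barcodes, since their barcodes started at 1997, 2001 and 1998 genes with GFP, with TBX18 and with TBX18 and the TGF-beta inhibitor A83-01. The leading columns were present there too and held a median of 5.03%, 3.39% and 6.09% of a cell's summed values after the log was undone. Their share stopped short of 40% in all 3 tables, with the highest barcodes at 39.8%, 39.7% and 39.96%. With A83-01, 402 barcodes lay above 35%, and 0 reached 40%. At day 3, all 1023 few-gene barcodes and another 195 with GFP and 184 with TBX18 were at 40% or more. The filters on cells are not given in the sources used here, so the 2 days cannot be compared in how often such barcodes arose.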

How the data were processed

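Single-cell RNA was captured with a droplet-based 3' kit, per the labels' protocols. The submitters' processing notes name STAR 2.7.8a, Partek and the build Rnor_6.0, without their roles. The authors deposited the day 3 tables as estimated counts of UMIs per barcode and gene, judging from the values: 99.7% of nonzero values were whole within 0.05 in each. Fractional values occurred in 257 columns with GFP and 252 with TBX18. The day 14 tables were deposited as log2 of CPM plus 1, judging from their sums, and the log was undone here.

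Groups follow the sample titles, with 1 library each, so no test was made and no p-value is given. Any nonzero value counted as a gene. Estimated counts were kept as deposited for shares and rounded to whole numbers for thinning (seed 1) and for exact intervals (95%, Clopper-Pearson for shares, conditional binomial for ratios), which cover counting error only. Neither cells nor doublets were removed. Outside columns entered with at least 20 UMIs, seen or expected, and 2-fold was called. The members and lists were chosen with earlier results of these data known. The planned gene lists and cell type markers use gene names and were not applied, and nuclear genes were replaced by the columns outside the leading 15. Outside columns were ranked by the inner end of the interval over both libraries, the higher ones with a UMI in at least 20 few-gene barcodes, and the planned 12 each way were kept to 2, since the IDs have no names here. Analyses used Python 3.11.15, numpy 2.4.6 and scipy 1.17.1.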

Additional observations from a re-analysis of the deposited data

How the results depend on the processing

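No paired analysis was possible because each group has 1 library. The gene list alternatives were not run, since the IDs have no names here. Values are given for GFP and then TBX18, and a value counts as moved when it leaves its 95% counting interval, or, for a count of columns, when it changes over 1.5 times. The share of few-gene barcodes was 9.32% and 5.85% with a limit of 1000 genes. The share of the 15 leading columns was 97.8% and 98.5% with a limit of 300 genes, 93.8% and 90.8% with a limit of 1000, 96.2% and 97.5% without columns that hold fractions, 97.0% and 97.9% with equal weight for each barcode, and 97.2% and 98.1% without the deepest 10% of few-gene barcodes. The share of the leading 6 was 80.4% and 80.9%, 77.2% and 74.3%, 76.4% and 76.7%, 79.7% and 80.5%, and 79.9% and 80.8% under the same settings in that order, from 80.2% and 80.6%. Median genes were 36 and 29 when thinned to 1000 UMIs, a lower depth by construction.

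Counts of outside columns moved most. With a limit of 300 genes 23 and 13 were higher and 50 and 14 lower. With a limit of 1000 genes 77 were higher with TBX18, and 242 and 432 were lower. Equal weight for each barcode left 38 higher with GFP, and 51 and 18 lower. With at least 50 UMIs 11 and 7 were higher and 41 and 11 lower, among fewer columns. Without a filter on low counts 6522 and 8819 were higher and 1298 and 747 lower, among 15217 and 15227 columns. A pseudocount of 5 UMIs gave 40 and 11 lower, and centring on the median gave 60 and 16 lower. Without ENSRNOG00000062158 in the outside UMIs, a setting chosen after seeing the data, 64 were lower with GFP. The cause of these moves was not tested beyond the numbers of columns that each setting lets in.

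The share of ENSRNOG00000043866 within the leading columns, also recomputed after seeing the data, was 7.21% and 11.6% with a limit of 300 genes, 6.99% and 11.4% with a limit of 1000, 7.27% and 12.6% with equal weight, and 7.23% and 11.6% without the deepest 10%. Without the barcodes it leads it was 10.97% with TBX18. In each of these settings it stayed above the 2.63% and 3.69% of the other barcodes.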
